A study of Arabidopsis thaliana with 3 samples.

Results

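The CC-type (class III) glutaredoxins are a family of small plant redox proteins, and 9 of their genes in Arabidopsis thaliana are described here: the 5 neighbours AT4G15660, AT4G15670, AT4G15680, AT4G15690 and AT4G15700, with AT5G18600, AT1G03020, AT3G62930 and AT3G62950. They were chosen by family and from earlier readings of these same arrays, in which AT5G18600 was among the lowest genes in fe-1 and AT4G15700 and AT4G15670 were among the highest with dexamethasone. Their values in both comparisons are therefore given as a description, no p-value is given for any of them, and counts of them past a threshold support nothing. All 9 had exactly 1 probe, found through the RefSeq transcript named in the array annotation, among 25383 genes with a matched probe. The family as listed here has 21 genes, and 11 of the other 12 had a probe.

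Glutaredoxins use glutathione to reduce disulfides or to take glutathione off proteins, or they carry iron-sulfur clusters. The CC-type is found only in land plants, and its members are best known for binding TGA transcription factors rather than for general redox work. In Arabidopsis, ROXY1 and ROXY2 act in petal and anther development, several other members respond to nitrate, and some move as polypeptides through the phloem from shoot to root as a signal of nitrogen demand.

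RNA of whole seedlings on day 7 was hybridised to 3 two-colour Agilent arrays. On 2 of them, biological replicates of each other, untreated fe-1 RNA was in Cy5 and untreated wild-type (WT, accession L.er) RNA in Cy3, both from zeitgeber time 15 h. On the third, 35S::FE-GR (#5) seedlings submerged for 2 h in 1 µM dexamethasone (Dex) were in Cy5, and in Cy3 were mock-treated seedlings of that line, both from zeitgeber time 14 h. FE (AT1G79430, APL in RefSeq) encodes a MYB-related factor of the phloem, fe-1 is its mutant, and FE-GR is FE joined to a steroid-binding domain that holds a protein outside the nucleus until Dex is given. The 35S promoter drives the fusion throughout the plant rather than in the phloem, the label #5 marks 1 line, and no sample of a line without FE-GR treated with Dex was analysed here. All seedlings grew in long days at 22 °C on medium with 1% sucrose.

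Across the arrays, 72.3% to 75.0% of probes were well above background in Cy5 and 75.2% to 78.2% in Cy3, with 0 saturated gene spots. Precision is limited by how few arrays there are. All 13 shoot, root and phloem marker genes checked were well above background in every channel, as the labelled tissue is a whole seedling. The brightest of the 3 FE probes had log2 ratios of -0.15 and -0.19 in fe-1 over WT (limma adjusted p = 0.0432), while the other 2 averaged 0.06 and -0.0047, and the labels do not give the lesion, so these levels do not check the genotype. In whole seedlings, fewer cells of a type and less RNA per cell cannot be told apart. How the seedlings of the biological replicates were kept separate is not described, so p-values cover only the spread between these samples. The same channel held the tested RNA on each array, so the dye was never swapped.

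With Dex, all 9 glutaredoxin genes were at least 2-fold higher than with mock, against 3.58% of the 20497 genes measured on that array, and none was 2-fold lower, against 2.95%. Because the choice of genes used this array, nothing is read from that difference. The 9 log2 ratios ran from 1.50 to 4.69 with a median of 3.48, while the median of all genes was 0.00. In fe-1, 7 of the 9 were below 0 on both arrays, against 39.5% of the 20681 genes tested, and their median was -0.36, against -0.01 for all genes. By the limma fit over all genes, 6 of the 9 were lower in fe-1 and 0 higher at an adjusted p under 0.05, where the background was 11.4% lower and 8.90% higher, and again nothing is read from the counts. The number lower was 2 with the scanner's processed signals, 0 in the series value table and 0 when spots with a non-uniform local background were kept. Taken gene by gene, 8 of the 9 had a mean ratio below 0 in fe-1 and a ratio above 0 with Dex, against 24.3% of the 19980 genes measured in both, on arrays of the same dye orientation.

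**Figure D1:**
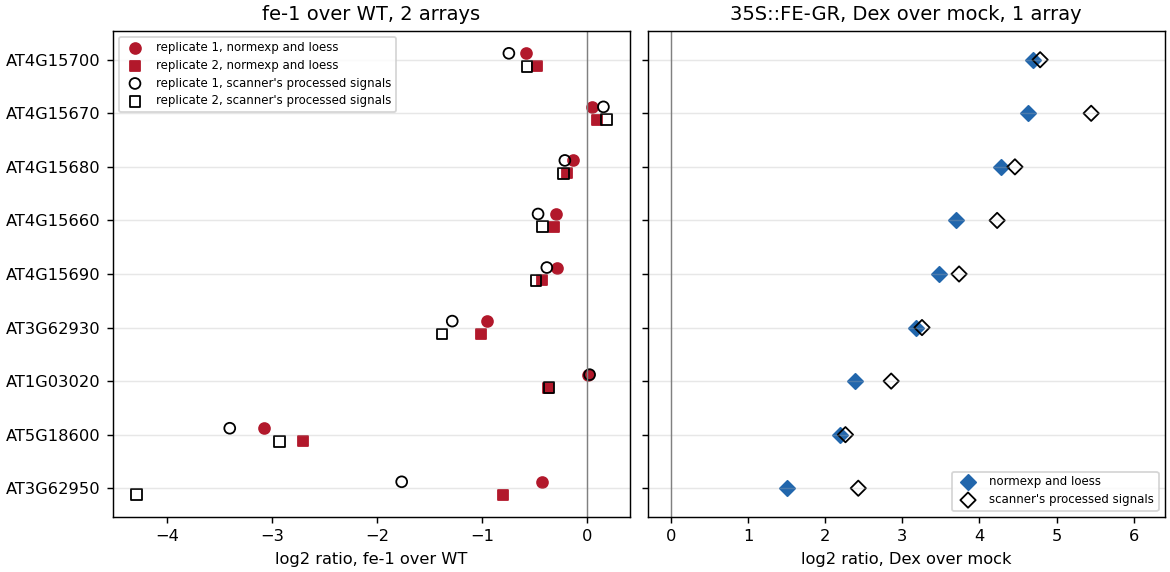
Log2 ratios of the 9 glutaredoxin genes on each array, fe-1 over WT at left (circles replicate 1, squares replicate 2) and Dex over mock at right; filled symbols are normexp and loess values, open symbols the scanner's processed signals. The Dex ratios all lie above 1, from 1.50 for AT3G62950 to 4.69 for AT4G15700, and AT5G18600 lies near -3 in fe-1.

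AT5G18600 had the lowest fe-1 ratio of the 9 and was at rank 4 from the lowest of all 20681 genes. Its raw median spot signals were 299 and 489.5 in fe-1, over local backgrounds of 68 and 59, and 2339 and 2566 in WT, over backgrounds of 19 and 18. All 4 were well above background, but raw signals of different dyes are not compared directly. The normalised log2 levels were 8.31 and 8.64 in fe-1, and 11.38 and 11.35 in WT on the same arrays. The log2 ratios of -3.07 and -2.70 averaged -2.89 ± 0.26 (SD, n = 2), so the level was 7.41-fold higher in WT. The scanner's processed signals gave -3.40 and -2.93. With spots of non-uniform background kept, the mean was -1.93, the smallest size over the 10 alternatives to the processing. On the Dex array the raw signal was 47542 with Dex and 5240.5 with mock, a log2 ratio of 2.19 or 4.57-fold, the second smallest of the 9.

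AT3G62930 and AT3G62950 lie on chromosome 3 with the protein-coding gene AT3G62940 between them, and both were lower in fe-1 on both arrays. For AT3G62930 the normalised log2 levels were 7.61 and 7.56 in fe-1, and 8.55 and 8.57 in WT. Its ratio was -0.98 ± 0.0445 (SD, n = 2), so that WT was 1.97-fold higher. With Dex its level was 13.28, against 10.09 with mock, a 9.08-fold difference.

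AT3G62950 was the only one of the 9 with a channel that was not well above background, which was the fe-1 channel on both arrays. Its levels were 6.20 and 5.95 in fe-1 and 6.63 and 6.75 in WT, so that WT was at least 1.53-fold higher. This bound sets the mean of the WT replicates over the fe-1 probe's own signal, which was above the lowest signal of probes well above background, and it holds for this processing and without dye swaps. The measured ratios of -0.43 and -0.80 depended strongly on the background correction, since the scanner's processed signals gave -1.76 and -4.29. With Dex it had the smallest ratio of the 9, 1.50 or 2.83-fold, from levels of 8.39 with Dex and 6.89 with mock. The scanner's processed signals gave 2.43.

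The 5 neighbours on chromosome 4 had the 5 highest Dex ratios of the 9, and all lay within the highest 32 of 20497 genes. AT4G15700 was at rank 9 with a raw signal of 38980 with Dex, against 751 with mock, a log2 ratio of 4.69 or 25.8-fold. AT4G15670 followed at rank 10 with 5396.5 with Dex and 88 with mock, a ratio of 4.63 or 24.7-fold. AT4G15680 read 17731 with Dex and 443 with mock, a ratio of 4.28 or 19.4-fold. These 3 were all above 4 on the log2 scale. AT4G15660 read 4637 with Dex and 156 with mock, a ratio of 3.69 or 12.9-fold. AT4G15690 read 8036 with Dex and 343 with mock, a ratio of 3.48 or 11.1-fold. The order among the 5 has no error behind it, since this comparison had 1 array. With the scanner's processed signals AT4G15670 was the highest, at 5.45, ahead of AT4G15700 at 4.79, so the order of these genes depended on the processing.

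In fe-1 the same 5 genes did not all read alike, though differences between genes were not tested. AT4G15700 was the lowest, with levels of 8.56 and 8.48 in fe-1, against 9.14 and 8.95 in WT, and a ratio of -0.52 ± 0.074 (SD, n = 2). AT4G15690 had a ratio of -0.36 ± 0.10, from levels of 8.45 and 8.34 in fe-1 and 8.73 and 8.77 in WT. AT4G15660 had a ratio of -0.30 ± 0.015, from levels of 7.56 and 7.42 in fe-1 and 7.85 and 7.73 in WT. AT4G15680 had a ratio of -0.16 ± 0.044, from levels of 7.95 and 7.87 in fe-1 and 8.08 and 8.06 in WT. For AT4G15700, AT4G15690, AT4G15660 and AT4G15680 the fe-1 levels lay below the WT levels with no overlap. The share of all genes with no overlap was not counted, so nothing is read from this. AT4G15670 was the exception of the block, slightly above 0 on both arrays at 0.07 ± 0.038, with levels of 7.26 and 7.19 in fe-1 and 7.21 and 7.10 in WT. The ratios of AT4G15690 and AT4G15660 did not differ beyond their spread, and AT4G15700, AT4G15680 and AT4G15670 had ranges over the 2 arrays that did not overlap those of their neighbours in the order. Whether transcripts of related genes in the block bind each other's probes was not tested, since no probe sequences were used here. The 5 probes did not give a single reading in fe-1, where the ratios on the 2 arrays ran from -0.58 and -0.47 for AT4G15700 to 0.05 and 0.10 for AT4G15670.

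AT1G03020 stood on its own on chromosome 1 and its replicates disagreed in fe-1. Its levels were 8.66 and 8.40 in fe-1 and 8.65 and 8.77 in WT, giving ratios of 0.01 and -0.37. The mean of -0.18 was smaller than the SD of 0.27 between the arrays. With Dex its raw signal was 1495, against 130 with mock, a log2 ratio of 2.39 or 5.23-fold. It was therefore higher with Dex while its direction in fe-1 was not settled by these 2 arrays.

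**Figure D2:**
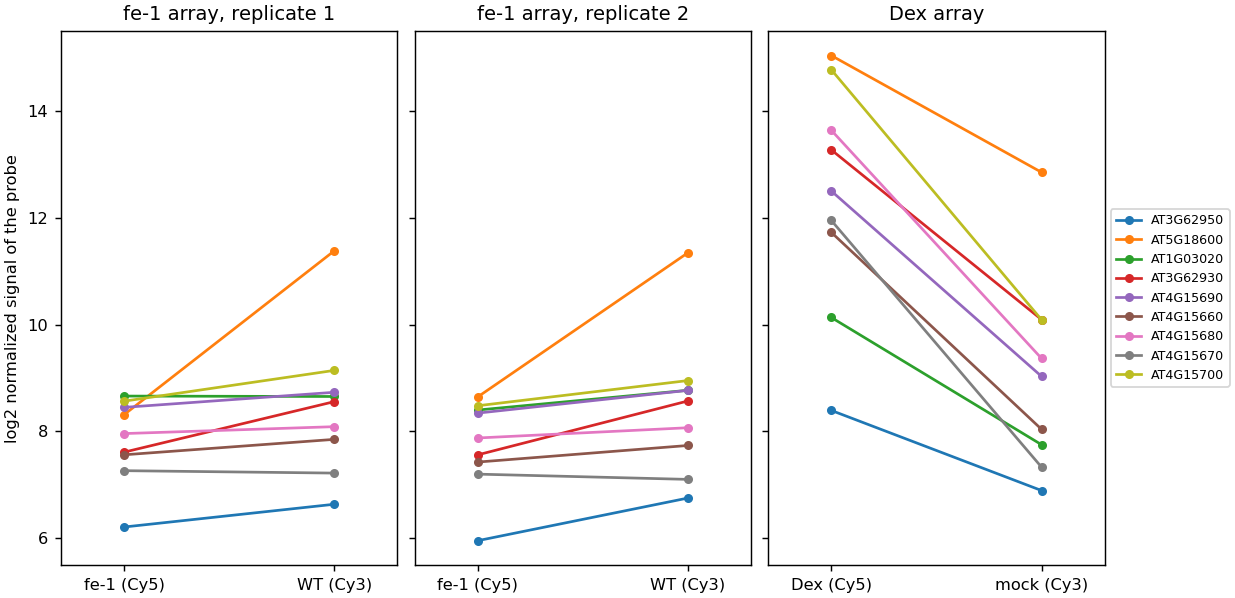
Log2 normalised signal of each of the 9 probes in the channels of each array, fe-1 left of WT and Dex left of mock, with a line joining the channels of 1 probe. Each line is read only for its slope, since levels of different probes are not comparable and signals were not scaled between the fe-1 and Dex arrays; the steep line of AT5G18600 toward WT is its 7.41-fold difference, and on the Dex array every line falls toward mock.

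The markers of the seedling's organs and phloem also moved in these comparisons. All 5 root markers were lower in fe-1 by limma, against 11.4% of all genes, with a median of -1.05. Lowest were SHV2 (also called COBL9) at -1.305 ± 0.069 and RHS19 at -1.25 ± 0.16, both known from root hairs. The median was the value of EXPA7, and EXPA18 was at -0.86 ± 0.068. MYB36 fell least, at -0.27 ± 0.074, and its other probe read -0.08. The median therefore does not describe every root marker, and it is not read as the amount of root in the seedlings. Of 5 shoot markers, 3 rose and 0 fell, against 8.90% and 11.4% of all genes, with a median of 0.45 from the brightest probe of each gene. The shoot median was 0.14 over the mean of each gene's probes, since other probes of these genes read lower. Those of CAB1 ranged from -0.04 to 0.48 and those of RBCS1A from 0.04 to 0.56. The brightest probes of RBCS1A and RBCS2B read 0.56 and 0.50 in fe-1, and both read 0.62 with Dex. With the scanner's processed signals they read 0.33 and 0.32 in fe-1. The part of the dye, which was not swapped, in the values of such bright probes was not tested. All 4 probes of LHB1B1, which did not pass, were below 0 in fe-1, from -0.41 to -0.04, and ranged from -0.12 to 1.09 with Dex. With Dex the root list had a median of -0.24, ranging from -0.67 to 0.36, and the shoot list a median of 0.43, or 0.32 over the mean of each gene's probes, with 6 of the 9 CAB1 probes below 0. The phloem marker SUC2, the sucrose loader of companion cells, was at -0.06 ± 0.15 in fe-1 and 3.20 with Dex, and SEOa, a sieve element gene, was at -0.48 ± 0.18 and 0.17. The third phloem gene, FE itself, read -0.26 with Dex, and its 3 probes lay between -0.31 and -0.26. Both channels of the Dex array came from the line carrying FE-GR. The brightest FE probe had raw signals of 16559 with Dex and 10113 with mock. On the fe-1 arrays it had 843 and 1033 in fe-1, and 866 and 923 in WT, without scaling between the arrays. Whether the FE probes read the FE-GR transcript was not tested, so the Dex value is not read as the phloem gene alone. The part of the marker shifts in the glutaredoxin values was not tested.

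Among the rest of the family, also listed with earlier results known, 5 of 11 genes fell in fe-1 and 0 rose, against 11.4% and 8.90% of all genes, by limma's moderated test with Benjamini-Hochberg adjustment over all 20681 genes. At an unadjusted p under 0.05 there were 6 lower and 1 higher, against 19.8% lower and 16.1% higher among all genes. AT3G21460 fell most, with ratios of -0.93 and -1.16 and a mean of -1.04 ± 0.16 (adjusted p = 7.16e-05), and its other probe read -1.37. AT1G06830 fell by 0.87 ± 0.27 (adjusted p = 0.000714), AT2G47880 by 0.84 ± 0.37 (adjusted p = 0.00221) and AT2G30540 by 0.72 ± 0.28 (adjusted p = 0.00183). AT3G62960, the direct neighbour of AT3G62950, fell by 0.43 ± 0.32 (adjusted p = 0.0190). Its fe-1 signal was not well above background, and in this processing the mean level was at least 1.35-fold higher in WT. Replicate 1 alone read -0.21. The mean was -0.33 with the spots of non-uniform background kept and -1.61 with the scanner's processed signals. All 5 were lower on both arrays, and in each the second replicate showed the larger difference. The calls depended on the processing. AT3G21460 alone stayed past the threshold when the processed signals of the scanner were used (adjusted p = 0.0302), the other 4 having adjusted p from 0.0533 to 0.0902. An offset of 16 lost AT3G62960 (adjusted p = 0.0568). All 5 calls were lost in the deposited value table (adjusted p from 0.134 to 0.161) and with the spots of non-uniform background kept (adjusted p from 0.305 to 0.469).

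The 6 remaining family genes did not pass the test in fe-1. GRXS13, with a ratio of -0.19 ± 0.23, and GRX480, at -0.08 ± 0.215, are known from salicylate and stress responses. ROXY1 was at -0.09 ± 0.14 and ROXY2 at 0.09 ± 0.013. AT4G33040 was at -0.09 ± 0.016 and AT5G11930 at 0.15 ± 0.050 (adjusted p = 0.0722). ROXY2 was called higher with the scanner's processed signals (0.53, adjusted p = 0.0465).

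On the Dex array 6 of these 11 genes were 2-fold or more above mock and 0 were 2-fold or more below it, with a median of 1.11, against the background of 3.58% and 2.95% given above. ROXY2 was highest at 4.58, which is 23.8-fold, close to the chromosome 4 genes. AT1G06830 was at 2.97, AT2G30540 at 2.19, AT3G21460 at 1.31, ROXY1 at 1.22 and AT3G62960 at 1.11. AT2G47880, which fell in fe-1, was at 0.54 with Dex. AT5G11930 was at -0.03, GRX480 at -0.44, AT4G33040 at -0.70 and GRXS13 at -0.77. Of the 5 genes that fell in fe-1 in this processing, 4 were at least 2-fold higher with Dex. Over all genes measured in both comparisons, 155 of the 2258 lower in fe-1 were. The family was listed with earlier results known, so nothing is read from that difference. ROXY2 was high with Dex without being lower in fe-1, where it lay slightly above 0 and did not pass. AT4G15670 also lay slightly above 0 in fe-1.

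**Figure D3:**
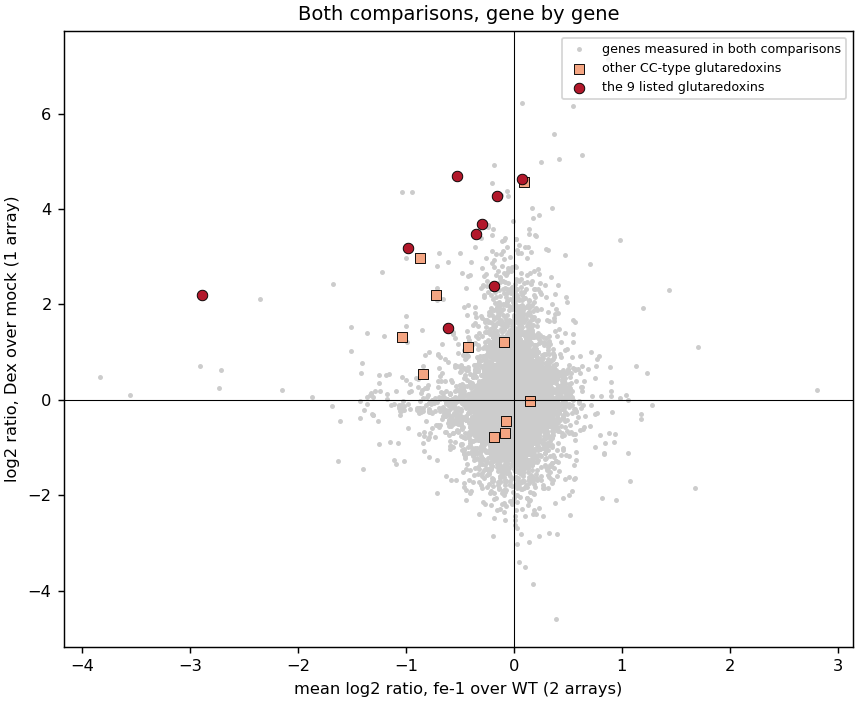
Mean log2 ratio in fe-1 over WT (horizontal axis, 2 arrays) against the log2 ratio of Dex over mock (vertical axis, 1 array) for genes measured in both comparisons, with the 9 listed glutaredoxins as red circles and the other CC-type genes as orange squares. All 9 lie above 1 on the vertical axis, 8 of them left of 0, and of the other CC-type genes 6 lie above 1.

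The glutaredoxins of the other classes lay near 0 in both comparisons. Of 10 CPYC and CGFS genes, which encode the general dithiol enzymes and the iron-sulfur type, 2 rose, 1 fell and 7 did not pass in fe-1, with a median of 0.00, where all genes had 8.90% higher and 11.4% lower. CXIP1 rose by 0.20 ± 0.081 (limma adjusted p = 0.0364), GRXS17 by 0.17 ± 0.039 (adjusted p = 0.0485), and GRXC1 fell by 0.20 ± 0.014 (adjusted p = 0.0251). Over the 7 alternatives to the processing that give a test by gene, CXIP1 passed in 3, GRXC1 in 2 and GRXS17 in 0. With Dex all 10 lay between -0.19 and 0.17, the highest being GRXS17 at 0.17 and AT1G77370 at 0.14, the lowest CXIP1 at -0.19 and AT2G20270 at -0.16. The difference between the classes was not itself tested.

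Of the 4 genes for glutathione, the reductant of these enzymes, 1 rose and 1 fell in fe-1, against the same 8.90% and 11.4%. GSH2, the glutathione synthetase gene, rose by 0.20 ± 0.019 (limma adjusted p = 0.0256) and GR1, a glutathione reductase gene, fell by 0.19 ± 0.014 (adjusted p = 0.0286), while GSH1 at 0.01 ± 0.032 and GR at -0.18 ± 0.15 did not pass. The call of GSH2 held in 2 of the 7 alternatives and that of GR1 in 1. With Dex the 4 genes ran from -0.39 for GSH1 and -0.34 for GSH2 to -0.25 for GR and -0.04 for GR1, each from its brightest probe. The other 3 probes of GSH2 were lower with Dex, at -0.61, -0.56 and -0.64.

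Of the 10 TGA factor genes, whose proteins CC-type glutaredoxins bind, 0 rose, 1 fell and 9 did not pass in fe-1, with a median of -0.04, beside 8.90% higher and 11.4% lower over all genes. TGA9 fell by 0.22 ± 0.082 (limma adjusted p = 0.0239), its other probe read -0.09, and it passed in 2 of the 7 alternatives. With Dex the median was 0.35, the highest being TGA3 at 1.17 and TGA1 at 0.59, and the lowest TGA10 at -0.69 and AHBP-1B (also called TGA2) at 0.04.

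In the nitrate response list, 1 of 16 tested genes rose, 3 fell and 12 did not pass in fe-1, with a median of -0.09, beside 8.90% higher and 11.4% lower over all genes. The nitrate transporter gene NRT2:1 rose by 0.37 ± 0.031 (limma adjusted p = 0.00262). XIP1, the receptor gene for CEP peptides, fell by 0.32 ± 0.21 (adjusted p = 0.0194), the transporter and sensor gene NRT1.1 by 0.20 ± 0.025 (adjusted p = 0.0280) and LBD38, a repressor of nitrate-induced genes, by 0.18 ± 0.038 (adjusted p = 0.0372). NRT2:1 passed in 5 of the 7 alternatives, XIP1 in 3, and NRT1.1 and LBD38 in 2 each. With Dex 4 of the 16 were 2-fold or more above mock and 1 was 2-fold or more below it, with a median of 0.49, where all genes had 3.58% and 2.95%. AT1G68670 at 2.78 and HRS1 at 2.65 had the highest ratios in this processing, and NRT1.1 at -1.05 and UPM1 at -0.64 the lowest. NRT2:1 was not well above background with mock, so in this processing it was at least 1.57-fold higher with Dex. The scanner's processed signals put it at 3.03, above AT1G68670 at 2.81 and HRS1 at 2.72. The nitrate reductase genes NIA1 and NIA2 read 0.01 and 0.39 with Dex, and NRT2.2 was not well above background and was not tested.

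In chromosome order, the Dex ratios of the 9 glutaredoxins were above those of every measured gene beside them. Because the choice of the 9 used this array and the neighbours were not so chosen, nothing is read from that difference. Of the 8 protein-coding genes flanking the chromosome 4 block, 4 on each side, 5 were measured with Dex and ranged from -1.35 to 0.23, while the block itself ranged from 3.48 to 4.69. The measured neighbours of AT1G03020 ranged from -0.42 to 0.64, with 0 of 6 past 2-fold. Around AT5G18600, AT5G18590 was at 1.31, and the other 6 measured neighbours were between -0.67 and 0.61. In fe-1, AT5G18600 was at -2.89, and its 7 measured neighbours ranged from -0.28 to 0.04. In the chromosome 3 block, AT3G62940, which is not listed as a glutaredoxin, was at 0.50 with Dex and -0.06 ± 0.048 in fe-1, between AT3G62930 and AT3G62950. Beyond the end of that block, AT3G62970 was at 1.09 with Dex and 0.05 ± 0.038 in fe-1.

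**Figure D4:**
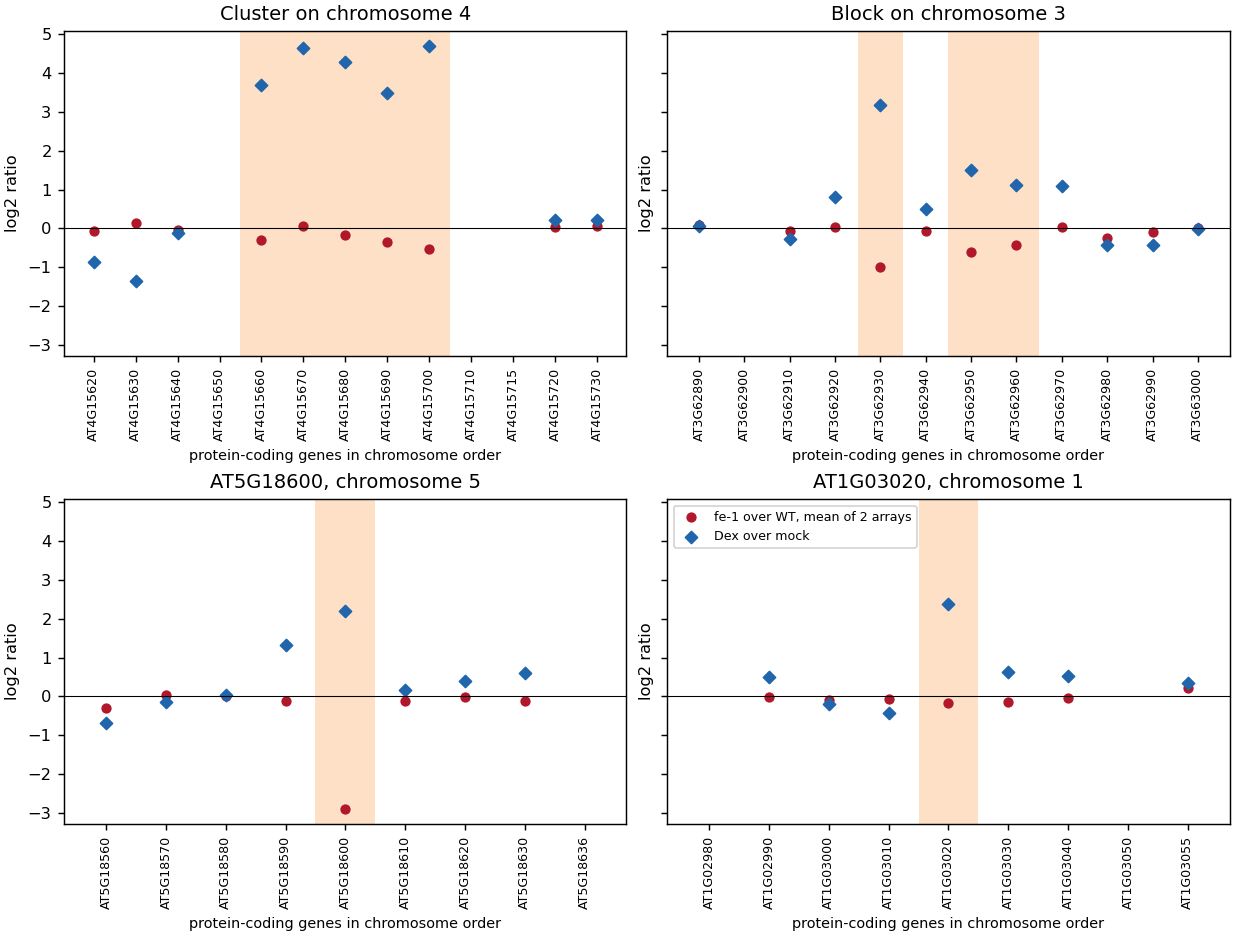
Log2 ratios of protein-coding genes in chromosome order around the 4 places where the 9 genes lie, with circles for fe-1 over WT (mean of 2 arrays), diamonds for Dex over mock, and shading for CC-type glutaredoxins; gaps are genes not measured. In the chromosome 4 block the 5 diamonds lie between 3.48 and 4.69 and the flanking diamonds between -1.35 and 0.23. The 9 genes were chosen with earlier readings of these arrays known.

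The genes most like AT5G18600 and AT4G15700 were found by the Euclidean distance over the 3 log2 ratios, leaving out the other listed genes. Closest to AT5G18600 was AT2G32550 (distance 0.77), at -2.35 ± 0.19 in fe-1 and 2.10 with Dex. The next 4 were farther off, AT1G67860 (1.50), AT1G64360 (1.63), RL4 (1.79) and AT2G32870 (1.96), and of these RL4, a RADIALIS-like MYB gene, was also at least 2-fold higher with Dex, at 2.42. Closest to AT4G15700 was AT3G25790 (distance 0.52), at -0.20 ± 0.13 in fe-1 and 4.55 with Dex. MYR1 (0.54), PHO1;H1 (0.73), RNS1 (0.75) and AT5G57640 (0.79) followed, with Dex ratios of 4.93, 4.29, 4.36 and 4.27. PHO1;H1 and RNS1 are known as genes induced by phosphate starvation, and RNS1 was the lowest of these 5 in fe-1, at -0.95 ± 0.23.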

How the data were processed

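Agilent Feature Extraction (10.7.3.1 by the file headers, 10.7 by the submitters' processing notes) read the 3 arrays, made from 0.1 µg of RNA per the labels' protocols. The deposited files hold median spot and local background intensity values, not normalized, and processed signals with their log10 ratio of Cy5 over Cy3, background-subtracted and dye-normalized per the file headers. The authors' deposited value table holds log2 ratios, centred on a median of 0, that match the scanner's within 0.005 with the same direction.

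Here 32 spots of fe-1 replicate 1 whose local background was not uniform were dropped, normexp (offset 50, which shrinks ratios of dim probes) and loess within each array were run in limma 3.58.1 (R 4.3.3), and 8 to 43 of 43803 gene spots per array were left out in all. Channel levels of the fe-1 arrays were also scaled by Aquantile. Of 43603 probes, 34285 matched a gene of RefSeq's TAIR10.1 table, used for names and gene order alone because the array names an older build. Each gene was read from the brightest of its probes that were well above background in 2 or more of the 4 fe-1 channels (1 or more on the Dex array). In fe-1 the ratios were tested against 0 by lmFit and eBayes (1 residual degree of freedom and a prior of 6.54), Benjamini-Hochberg adjusted across 20681 genes, with a threshold of 0.05; the fit was tested on simulated data. The single Dex array has no error and no test, and ratios of 2-fold or more were counted.

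The members, lists and processing were chosen with earlier results of these data known. The rule named the 9 members, the rest of the family, genes of the other lists that passed in fe-1 or had the 2 highest or 2 lowest Dex ratios, FE, and the 5 genes nearest to AT5G18600 and to AT4G15700. GSH1, GR, NIA1, NIA2, flanking genes and marker examples were added after their values were seen.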

Additional observations from a re-analysis of the deposited data

How the results depend on the processing

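The 9 genes were at least 2-fold higher with Dex under each of the 7 alternatives run on that array, and their median ratio there was 3.74 both in the deposited value table and with processed scanner signals, 3.59 with a normexp offset of 16 and 3.81 with median centring, which also moved the median of all genes with Dex by 0.21. In fe-1 their median was -0.24 with the spots of non-uniform background kept, and it ranged from -0.43 to -0.29 when either replicate was left out, which leaves 1 array and no test. AT1G03020 was the only one of the 9 whose fe-1 direction changed, to 0.01 without replicate 2. The counts of calls depended far more on the processing. Processed scanner signals called 139 genes as higher and 411 as lower in fe-1, so that the higher were 25.3% of the calls instead of 43.9%; 2 of the 9 genes were lower, 1 other CC-type gene was higher and 1 lower, and 1 pathway list gene was higher and 0 lower, against 4 and 6. The series value table gave 0 and 0 calls by limma in all of these sets, with 6036 genes at an unadjusted p under 0.05. With the spots of non-uniform background kept, 10 genes were higher and 49 lower (2283 at an unadjusted p under 0.05; higher 16.9%), and 0 of the 9, of the other CC-type genes and of the pathway genes were called. An offset of 16 gave 1014 higher and 1500 lower, with 1 pathway gene higher and 0 lower. The mean of kept probes gave 2 pathway genes higher. Median centring gave 1494 genes and 2 pathway genes lower. Testing every kept probe gave 2959 probes higher. At least 2-fold lower with Dex were 1212 genes with the scanner's processed signals, 1226 in the value table (1101 higher) and 389 with median centring, where the higher were 73.7% instead of 54.8%. The causes were not tested. Each fe-1 replicate shares its array with its WT sample, so the test of ratios is itself paired by array, and both fe-1 arrays lie on the same slide.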

Other observations

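Among the 19980 genes measured in both comparisons, 8 were at least 2-fold lower in fe-1 on both arrays and at least 2-fold higher with Dex. AT5G18600 was the only CC-type glutaredoxin among them in this processing, with each gene read from its brightest probe. The other 7 include the florigen gene FT, with log2 ratios of -1.24 and -1.17 in fe-1 and 1.34 with Dex, and its relative BFT, with -1.72 and -1.30 in fe-1 and 1.02 with Dex. The FT signal in fe-1 was not well above background on either array, and in this processing its mean level was at least 2.30-fold higher in WT. The remaining genes are RL4, AT2G32550, AT1G10380, AT1G24575 and AT4G26010, with Dex ratios from 1.40 to 2.68. The other probe of AT3G21460 also passed both thresholds, at -1.13 and -1.61 in fe-1 and 1.94 with Dex. With the scanner's processed signals AT3G62930 passed them as well, at -1.28 and -1.38 in fe-1 and 3.26 with Dex. So did AT3G62950, AT3G21460 and AT3G62960, though AT3G62950 and AT3G62960 were not well above background in fe-1.

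A larger set of 155 genes passed the limma threshold as lower in fe-1 and was at least 2-fold higher with Dex, out of 2258 lower genes measured in both. It holds 6 of the 9 listed genes and 4 of the other CC-type genes, namely AT1G06830, AT2G30540, AT3G21460 and AT3G62960. Both groups were listed with earlier results known, so nothing is read from these counts. The set depended on the processing, since the 2348 genes lower in fe-1 became 411 with the scanner's processed signals. They became 49 with the spots of non-uniform background kept and 0 in the value table.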
